A study of Mus musculus with 2 samples.

Results

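Genes of cholesterol and fatty acid synthesis, of the sterol-sensing machinery that controls them and of sterol export were compared between 2 populations of splenic marginal zone B cells, CD80high and CD80low. The members were 33 genes chosen by gene symbol for their place in these pathways, and all 33 had a row among the 21829 gene symbols of the table. Marginal zone B cells line the sinus around splenic follicles and meet antigen carried in blood, and CD80 is the costimulatory surface protein by which the cells were divided. Messenger RNA was sequenced from 1 CD80high and 1 CD80low library, both of B cells from the spleens of untreated, wild type C57BL/6 male mice. The sources used here do not state the age of the mice, how many animals went into a library or the other markers of the sort. With 1 library per population no difference below has a replicate check and no test between the populations could be made.

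Cells build cholesterol from acetyl-CoA through mevalonate, isoprenoids, squalene and a series of ring modifications, and build fatty acids from the same acetyl-CoA through malonyl-CoA. The transcription factors SREBP-1 and SREBP-2 switch on both pathways when sterol in the endoplasmic reticulum is low. SCAP carries them to the Golgi for cleavage, and INSIG proteins hold SCAP back when sterol is plentiful. For cholesterol, liver X receptors act in the opposite sense to SREBP-2 by inducing its export. Resting lymphocytes make little new lipid, and activation raises their SREBP activity.

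Expression is given as FPKM, fragment counts scaled to library depth and transcript length, which allows levels of different genes to be set side by side. All 33 genes were expressed at a mean of at least 1 FPKM, the level required for a comparison, as were 9955 genes in all. Ratios are log2((CD80high FPKM + 1)/(CD80low FPKM + 1)), where the added 1 FPKM shrinks the ratios of low genes, while folds are quotients of the FPKM values themselves. A 95% counting interval accompanies a fold where it is discussed. It was approximated from the depth of the libraries, about 24200000 fragments in CD80high and 24700000 in CD80low, and the median length of a gene's coding transcripts. A longer assumed length would give more fragments and a narrower interval. The interval keeps the deposited FPKM scale. It covers counting error only, not the variation between animals or sorts, the choice of scale or length, or the sharing of fragments among transcripts.

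The members differed little between the libraries as a set. Of the 33 genes, 21 (63.6%) were higher in CD80high, where 46.4% of all 9955 genes were. The median ratio was 0.06 for the members and -0.02 for all genes. A difference of at least 1.2-fold on the ratio scale was reached by 8 members (24.2%), against 19.7% of all genes, so by size alone the members were near the background. In the upward direction there were 6 members at this size, Elovl6, Insig1, Scd2, Idi1, Cyp51 and Fasn, which is 18.2% of the members where 8.31% of all genes were as much higher. In the downward direction there were 2, Insig2 and Ebp, which is 6.06% of the members against 11.4% of all genes. At 1.5-fold Insig2 alone passed, 1 of 33 where 2.4% of all genes did, 1.51% as higher and 0.894% as lower. No member reached 2-fold, a size that 0.452% of all genes reached, 0.352% as higher and 0.1% as lower. When both libraries were rescaled to the mean of their FPKM totals the median of all genes moved to 0.12, and 90.9% of members and 73.8% of all genes were higher in CD80high. The member median stood 0.07 above the median of all genes before this rescaling and 0.08 above it afterwards.

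**Figure D1:**
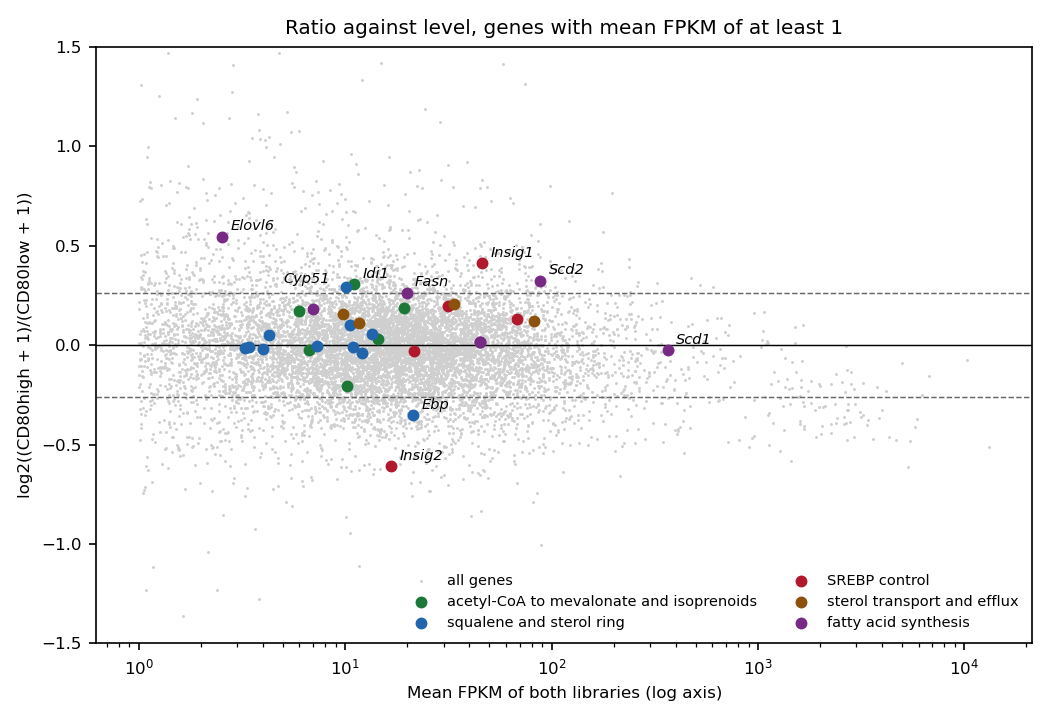
Ratio of CD80high to CD80low (log2 scale, 1 FPKM added) against the mean FPKM of both libraries on a log axis, with 1 point per gene; grey points are all genes of at least 1 FPKM, coloured points the 33 members by role, and dashed lines mark 1.2-fold. Members past 1.2-fold and Scd1 are named; 10 genes lie beyond the plotted range of 1.5 in either direction.

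The sterol sensors held the most divergent pair. Insig1, a retention protein that is itself a strong target of SREBP (chromosome 5, 28071363 to 28078662, plus strand, GRCm38), stood at 52.8 FPKM in CD80high against 39.4 FPKM in CD80low. That is 1.34-fold higher in CD80high, with a counting interval of 1.27 to 1.41, and a larger ratio than 96.7% of all genes. Insig2, the paralog whose protein does the same work but whose gene is not driven by SREBP in the same way (chromosome 1, 121304353 to 121332589, minus strand), was listed at 13.0 FPKM in CD80high against 20.3 FPKM in CD80low. It was 1.56-fold lower in CD80high, with an interval of 1.29 to 1.90 for the inverse fold, and only 0.733% of genes had a smaller ratio. The quotient of Insig1 to Insig2 FPKM was therefore 4.07 in CD80high and 1.94 in CD80low. Insig1 has 1 annotated coding transcript, whereas Insig2 has 11, of 204 to 2697 nucleotides, so its FPKM depends more on how fragments were divided among them, and it overlaps Gm37174 on the opposite strand. The opposite directions of the pair were kept in all 11 alternative ways of processing, with ratios of 0.38 to 0.56 for Insig1 and -0.64 to -0.46 for Insig2. Another pseudocount or filter cannot reverse a direction, while centring, rescaling and length adjustment can.

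The factors that the INSIG proteins restrain differed less. Srebf2, which encodes SREBP-2, the main driver of cholesterol genes, was listed at 70.9 FPKM in CD80high against 64.8 FPKM in CD80low, 1.095-fold higher (1.05 to 1.14). Srebf1, which encodes the SREBP-1 isoforms that favour fatty acid genes, stood at 21.2 FPKM in CD80high and 21.7 in CD80low, and its interval of 0.922 to 1.04 included 1. Srebf2 was thus the more abundant of the pair in both libraries, by a quotient of 3.34 in CD80high and 2.99 in CD80low. Scap, the escort protein, had 33.6 FPKM in CD80high against 29.2 FPKM in CD80low, or 1.15-fold higher, and the interval of 1.01 to 1.31 only just left out 1. Across these 5 sensors and factors 3 were higher in CD80high, where 46.4% of all genes were, and the median ratio was 0.13. After rescaling to the mean total 4 were higher, against 73.8% of all genes.

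**Figure D2:**
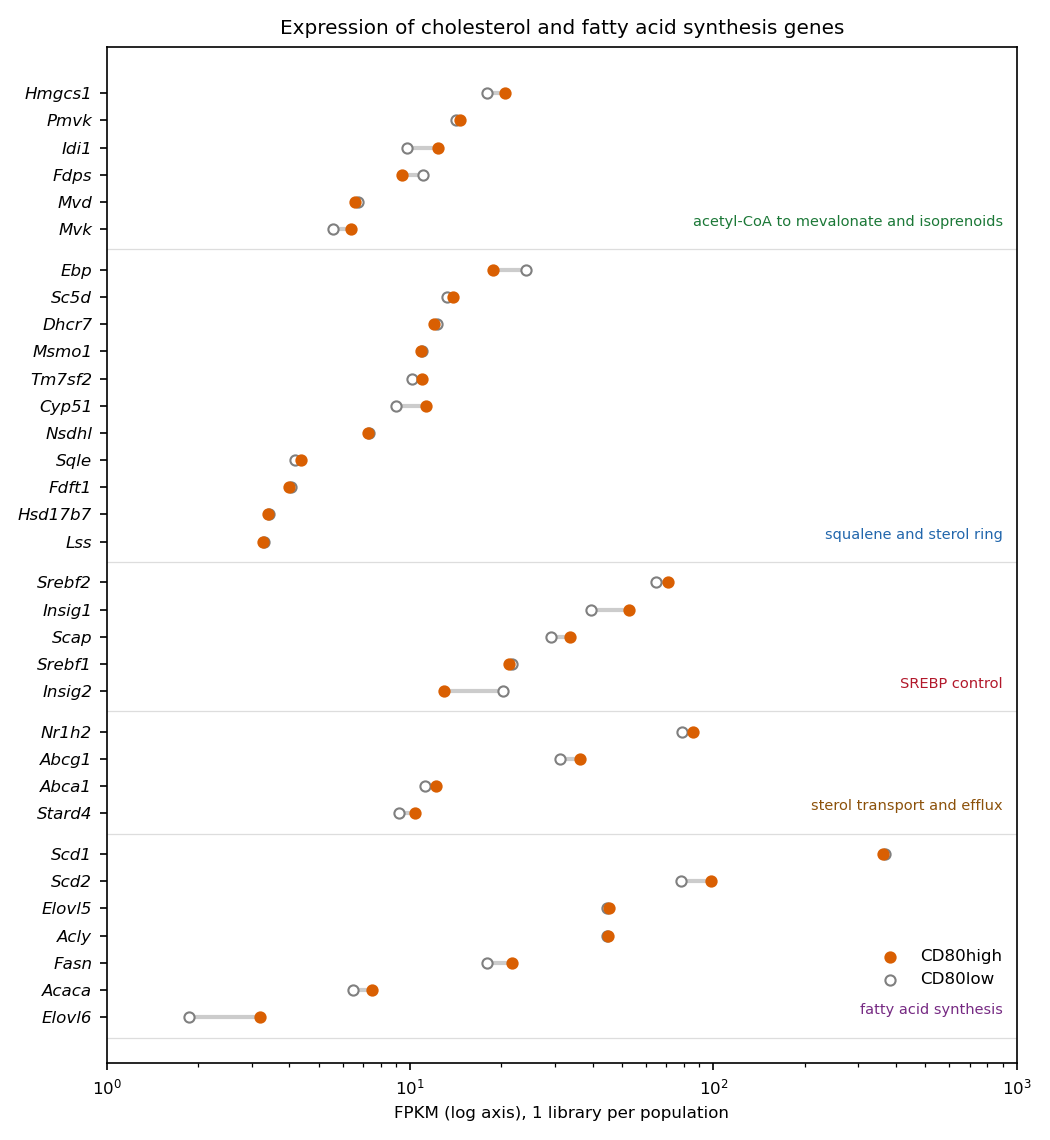
FPKM of each of the 33 members on a log axis, grouped by role and ordered by mean level within a role; filled points are the CD80high library and open points the CD80low library, joined by a grey bar. Insig2 and Ebp sit to the left in CD80high, Insig1, Scd2 and Elovl6 to the right, and Scd1, at 362 FPKM in CD80high and 368 in CD80low, is the most abundant member.

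Among the enzymes that lead from acetyl-CoA to isoprenoids, 4 of 6 were higher in CD80high, or 5 of 6 after rescaling or adjustment for transcript length, and the median ratio was 0.10. Over all genes 46.4% were higher, 73.8% after rescaling and 50.0% after length adjustment. Hmgcs1, the synthase that commits acetyl-CoA to the mevalonate route (chromosome 13, 119690379 to 119708260, plus strand), stood at 20.6 FPKM in CD80high against 17.9 FPKM in CD80low, 1.15-fold higher in CD80high (1.07 to 1.23). Idi1, the isomerase that interconverts the pair of 5-carbon isoprenoid units, had 12.3 FPKM in CD80high against 9.77 FPKM in CD80low, 1.26-fold higher (1.03 to 1.54). Mvk, mevalonate kinase, had 6.40 FPKM in CD80high and 5.58 in CD80low, and its interval of 0.912 to 1.45 included 1. The next kinase, Pmvk, was nearly level at 14.6 FPKM in CD80high against 14.2 FPKM in CD80low. So was Mvd, the decarboxylase after it, at 6.59 FPKM in CD80high and 6.72 in CD80low. Fdps, which joins isoprenoid units into farnesyl diphosphate, was listed lower in CD80high, at 9.41 FPKM against 11.02 FPKM in CD80low, with an interval for the fold of 0.706 to 1.03. The counting intervals of Mvk, Pmvk, Mvd and Fdps included 1, so a direction for these steps was not detectable at this depth with median transcript lengths.

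From squalene onward most enzymes were level. In this group of 11 genes, 4 were higher in CD80high, 8 after centring on the median of all genes and 10 after rescaling to the mean total, and the median ratio was -0.01. Over all genes 46.4% were higher, 50.0% after centring and 73.8% after rescaling. Fdft1, the squalene synthase, had 3.99 FPKM in CD80high against 4.05 FPKM in CD80low, and Sqle, the epoxidase that follows and a rate-limiting step of the pathway, had 4.35 FPKM in CD80high and 4.17 in CD80low. Lss, which closes the sterol rings, stood at 3.26 FPKM in CD80high against 3.31 FPKM in CD80low. These early sterol enzymes, with Hsd17b7 (3.40 FPKM in CD80high, 3.43 in CD80low), a 3-keto-sterol reductase, were among the lowest of the 33 genes, of which 5 had a mean under 5 FPKM. Msmo1, a demethylating oxidase, was listed at 10.9 FPKM in CD80high and 10.96 in CD80low, and Nsdhl, the dehydrogenase that works with it, at 7.29 FPKM in CD80high and 7.30 in CD80low. Both were equal between the libraries to within 1%, well inside their counting error. Sc5d, a desaturase, had 13.8 FPKM in CD80high against 13.3 FPKM in CD80low, and Dhcr7, the last reductase of the route, 12.0 FPKM in CD80high and 12.3 in CD80low. Tm7sf2, a sterol reductase, had 10.96 FPKM in CD80high against 10.1 FPKM in CD80low.

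A pair of sterol enzymes departed from this level picture, in opposite directions. Cyp51, the lanosterol demethylase, was listed at 11.2 FPKM in CD80high against 9.01 FPKM in CD80low, 1.25-fold higher (1.14 to 1.37). It overlaps Akap9 on the opposite strand, and the sources used here do not state whether counting was by strand. Ebp, the sterol isomerase that shifts a double bond of the ring (chromosome X, 8185329 to 8193512, minus strand), was listed at 18.7 FPKM in CD80high against 24.1 FPKM in CD80low. It was 1.29-fold lower in CD80high, with an interval of 1.15 to 1.45 for the inverse fold, and 6.01% of all genes had a smaller ratio. In all 11 alternatives Ebp stayed lower, with ratios of -0.37 to -0.20. These included centring, rescaling and length adjustment, which unlike another pseudocount or filter can reverse a direction. The highest row of a repeated symbol, the second sheet of values and leaving out other members left the Ebp ratio unchanged.

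**Figure D3:**
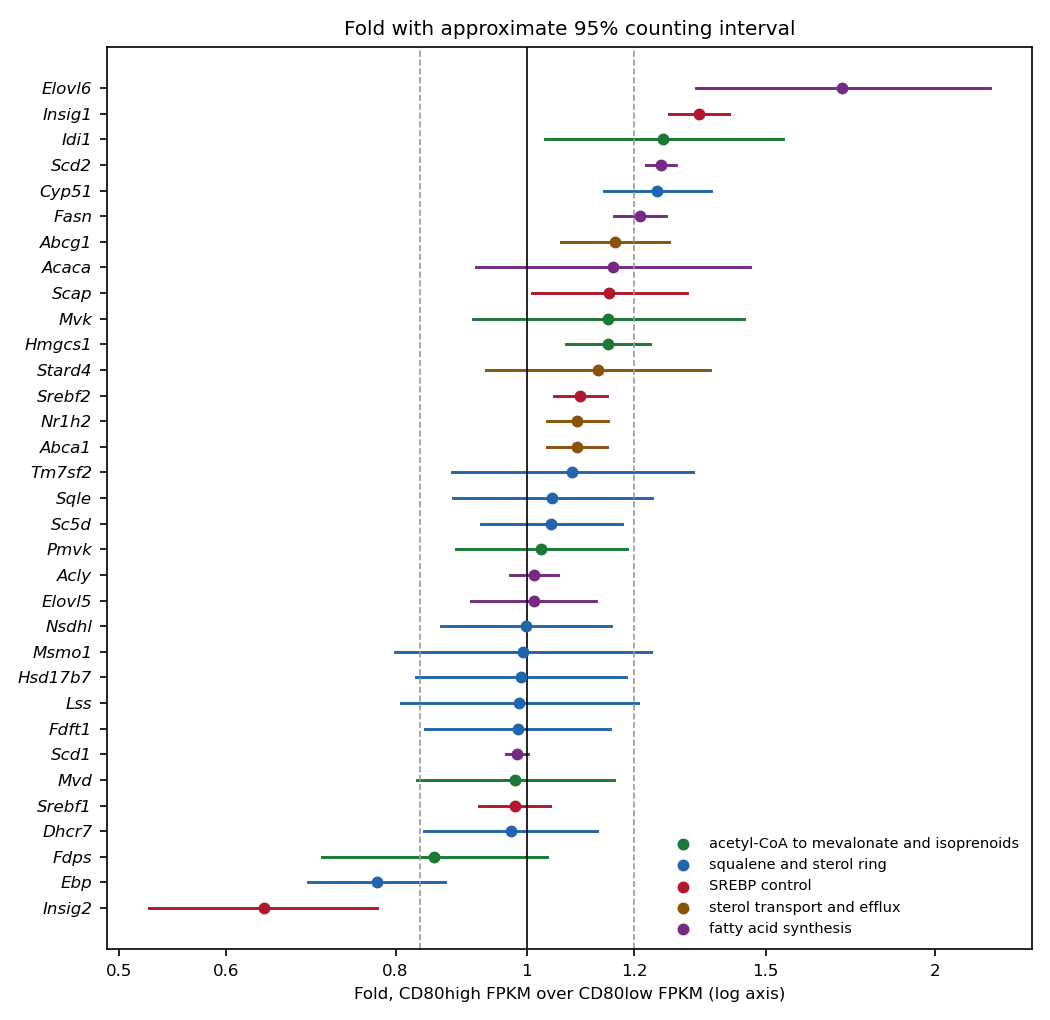
Fold of CD80high over CD80low FPKM on a log axis for the 33 members, in descending order, with approximate 95% counting intervals as bars and dashed lines at 1.2-fold in either direction; colours give the role. The interval lies above 1 for 12 members and below 1 for Ebp and Insig2.

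The counting interval of the fold lay above 1 for 12 of the 33 members, where it did for 22.1% of all genes, and below 1 for 2 of the 33, where it did for 25.9% of all genes. With the deposited scale and median transcript lengths, counting error alone left 19 members indistinguishable from no difference at this depth. On that scale, intervals that leave out 1 mark a difference between these libraries and not between the populations. The intervals were not recomputed after rescaling to the mean total, which moves all folds toward CD80high.

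The fatty acid genes had the largest summed level of the roles, 583 FPKM in CD80high and 562 in CD80low. Of the 7 genes of this role, 6 were higher in CD80high, 7 after rescaling to the mean total and 5 after adjustment for transcript length. Over all genes the shares were 46.4%, 73.8% and 50.0%. The median ratio of the 7 genes was 0.18, but 0.10 among those of at least 5 FPKM, 0.15 after length adjustment and 0.05 with the longest transcript. Scd1, a stearoyl-CoA desaturase that makes monounsaturated fatty acids (chromosome 19, 44394455 to 44407879, minus strand), was the most abundant member, at 362 FPKM in CD80high against 368 FPKM in CD80low. Its neighbour and paralog Scd2, the desaturase isoform (chromosome 19, 44293674 to 44306864, plus strand), stood at 98.0 FPKM in CD80high against 78.1 FPKM in CD80low. Scd2 was 1.26-fold higher in CD80high (1.22 to 1.29), while the fold of Scd1 was 0.983 (0.966 to 1.002). The quotient of Scd1 to Scd2 was accordingly 3.69 in CD80high and 4.71 in CD80low, and Scd1 outweighed Scd2 in both. These genes resemble each other in sequence, and the sources used here do not say how fragments that match both were assigned.

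Elovl6, which lengthens 16-carbon fatty acids (chromosome 3, 129532355 to 129638495, plus strand), had the largest ratio of any member and the lowest level. It was listed at 3.19 FPKM in CD80high against 1.87 FPKM in CD80low, or 1.71-fold higher with an interval of 1.33 to 2.195, and its ratio exceeded that of 98.2% of all genes. The ratio was 0.55 with 1 FPKM added, 0.74 with 0.1 FPKM and 0.25 with 5 FPKM, so its size depended on that choice. In the authors' deposited table its p-value was 0.0374, the smallest of the members and the 1 value of theirs at or under 0.05, and the q-value was 0.999, as for every member. The gene overlaps Gm35986 on the opposite strand. Elovl5, the elongase of polyunsaturated fatty acids, was level at 45.2 FPKM in CD80high against 44.7 FPKM in CD80low.

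The core synthesis enzymes lay between these extremes. Fasn, the fatty acid synthase (chromosome 11, 120805846 to 120824547, minus strand), was listed at 21.8 FPKM in CD80high against 17.9 FPKM in CD80low, 1.21-fold higher (1.16 to 1.27). Its ratio of 0.264 stood at the edge of the 1.2-fold limit. Acaca, the acetyl-CoA carboxylase that makes malonyl-CoA, had 7.48 FPKM in CD80high against 6.46 FPKM in CD80low, with an interval of 0.917 to 1.46. Acly, the ATP citrate lyase that supplies cytosolic acetyl-CoA to both pathways, stood at 45.1 FPKM in CD80high and 44.5 in CD80low, 1.01-fold (0.972 to 1.05).

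Genes of sterol transport and export were all 4 listed somewhat higher in CD80high, or 3 of 4 after adjustment for the length of the longest transcript, with unadjusted ratios between 0.11 and 0.21. Over all genes 46.4% were higher, or 50.0% after that adjustment. Nr1h2, which encodes the liver X receptor LXR-beta, was listed at 86.0 FPKM in CD80high against 78.9 FPKM in CD80low. Abcg1, an exporter of cholesterol to high-density lipoprotein and a target of liver X receptors, had 36.3 FPKM in CD80high and 31.3 in CD80low, 1.16-fold higher in CD80high (1.06 to 1.27). Abca1, the exporter that loads apolipoprotein A-I, had 12.2 FPKM in CD80high and 11.2 in CD80low, 1.09-fold higher (1.03 to 1.15). Stard4, a carrier of cholesterol between membranes, had 10.4 FPKM in CD80high against 9.20 FPKM in CD80low, and its interval of 0.933 to 1.36 included 1. None of the 4 reached 1.2-fold. Abca1, whose transcript is among the longest, had a ratio of 0.0008 after adjustment for transcript length and -0.02 when the longest transcript was used for it.

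Ratios moved with transcript length across all genes. Genes were divided by transcript length into 10 bins of nearly equal gene number. The median ratio was -0.11 in the bin of shortest transcripts and 0.11 in that of the longest. The median transcript length was 1756 nucleotides for the members, 2580.5 for the fatty acid genes and 2085 for all genes. After the median of its own length bin was subtracted from each gene, the member median was 0.14, and 24 of 33 members (72.7%) were higher in CD80high, where 50.0% of all genes were. Members at or past 1.2-fold were then Abcg1, Acaca, Elovl6, Idi1, Insig1, Mvk, Scap and Stard4 upward, 8 of 33 where 9.75% of all genes were as much higher, and Insig2 downward, 1 of 33 where 7.28% of all genes were as much lower, so that Scd2, Fasn, Cyp51 and Ebp no longer passed. With the longest transcript of each gene used instead, the member median was 0.06 and 22 of 33 members (66.7%) were higher in CD80high. Upward, Cyp51, Elovl6, Idi1, Insig1, Mvk and Pmvk then passed 1.2-fold. This was 6 of 33 members, where 8.48% of all genes were as much higher. Downward, Insig2 alone passed, where 6.03% of all genes were as much lower. Which members passed thus depended on the length used. The part of length in these differences was not tested.

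**Figure D4:**
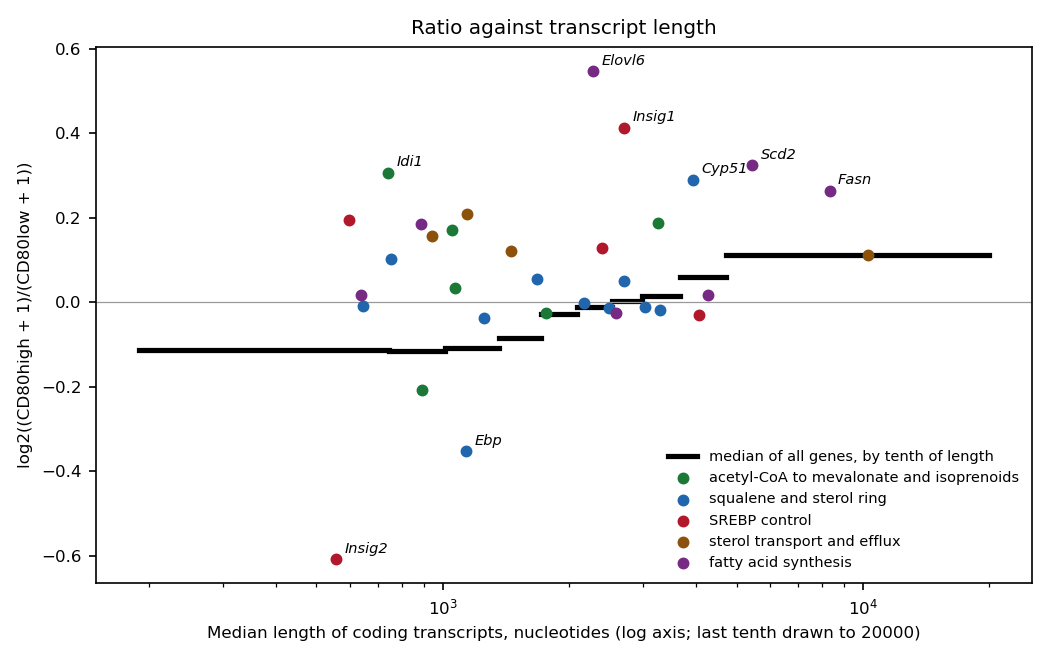
Ratio of CD80high to CD80low (log2 scale, 1 FPKM added) against the median length of a gene's coding transcripts on a log axis; black bars give the median ratio of all genes in each of 10 bins of length and coloured points the 33 members by role. The black bars climb from -0.11 to 0.11, Fasn and Scd2 lie 0.15 and 0.21 above the longest bar, and Insig2 lies far below the shortest.

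Genes of the same pathways outside the 33 were taken from a list of 68. Of the 49 with a mean of at least 1 FPKM, 26 were higher in CD80high, against 46.4% of all genes, with a median ratio of 0.01. With rescaled totals 38 were higher, against 73.8% of all genes. At 1.2-fold, without rescaling, 4 of the 49 were higher and 4 lower, 8.16% each way. Of all genes 8.31% were as much higher and 11.4% lower. Among the 49, the higher ones included Npc1, which releases cholesterol from lysosomes (16.3 FPKM in CD80high against 12.6 FPKM in CD80low) and Apoe, a lipoprotein component (176 FPKM in CD80high, 143 in CD80low). The lower ones were Mylip, which directs the LDL receptor to degradation (35.4 FPKM in CD80high, 44.8 in CD80low), Hsd17b12, a reductase of fatty acid elongation (16.0 FPKM in CD80high, 21.2 in CD80low), Hacd2, a dehydratase of the same cycle (2.79 FPKM in CD80high, 4.10 in CD80low), and Erg28, a scaffold of sterol enzymes (25.9 FPKM in CD80high, 31.6 in CD80low). A list of 13 cell cycle genes was set beside the lipid genes because dividing cells need membrane. It had 1 gene higher in CD80high, where 46.4% of all genes were, or 9 after rescaling, where 73.8% were. Of the 13 genes, Mki67 was listed at 13.5 FPKM in CD80high against 10.8 FPKM in CD80low, and Tyms at 1.96 FPKM in CD80high and 3.79 in CD80low.

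Both libraries carried B cell transcripts at high levels, such as Cd79a at 1284 FPKM in CD80high against 1574 FPKM in CD80low. Marginal zone B cell genes summed to 1940 FPKM in CD80high and 1857 in CD80low over 6 genes, and follicular B cell genes to 566 FPKM in CD80high and 668 in CD80low over 4, of which Fcer2a had 58.6 FPKM in CD80high and 118.5 in CD80low. Among markers for other cells, sums over each list were larger in CD80high, and except for plasma cells they were small beside the B cell genes. The 10 macrophage markers summed to 18.4 FPKM in CD80high against 9.89 FPKM in CD80low, with none at 0, all 10 higher in CD80high, and Cd68 (9.16 FPKM in CD80high, 6.81 in CD80low) and Adgre1 (1.58 FPKM in CD80high, 0.895 in CD80low) as the most abundant. The sums were 4.98 FPKM in CD80high and 0.631 in CD80low for 6 T cell markers, led by Cd3g (1.75 FPKM in CD80high, 0.431 in CD80low) and Cd3d (0.875 FPKM in CD80high, 0.0606 in CD80low), with Cd3e at 0 in CD80low. They were 10.9 FPKM in CD80high and 2.59 in CD80low for 6 natural killer cell markers, led by Gzma (4.45 FPKM in CD80high, 0.807 in CD80low) and Nkg7 (3.18 FPKM in CD80high, 0.923 in CD80low), and 3.45 FPKM in CD80high and 2.54 in CD80low for 5 dendritic cell markers, led by Flt3 (2.15 FPKM in CD80high, 1.94 in CD80low) and Zbtb46 (0.572 FPKM in CD80high, 0.2997 in CD80low), with Xcr1 at 0 in both. For 5 erythroid markers the sums were 6.04 FPKM in CD80high and 3.51 in CD80low, led by Hba-a2 (2.37 FPKM in CD80high, 1.21 in CD80low) and Hba-a1 (1.82 FPKM in CD80high, 1.11 in CD80low), which are near-identical copies. For 4 plasma cell markers they were 104.6 FPKM in CD80high and 73.9 in CD80low, led by Xbp1 (58.0 FPKM in CD80high, 53.0 in CD80low) and Jchain (39.9 FPKM in CD80high, 17.8 in CD80low). Macrophages express Abca1, Abcg1 and Apoe, and the part of such cells in the values of these genes, or of Elovl6, was not tested. In sorted populations, fewer cells of a type and less RNA per cell cannot be told apart.

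For 6 members the locus given in the table was more than 1.5 times as long as the annotated gene. They were Mvd, Cyp51, Srebf1, Tm7sf2, Fdps and Fdft1. For Mvd the table gives chromosome 8, 119910360 to 124345722, while the annotated gene runs from 122433601 to 122443422 on the minus strand. On the opposite strand Mvd overlaps Gm20388, Srebf1 overlaps Rai1 and Fdft1 overlaps Ctsb, and on the same strand Tm7sf2 overlaps Vps51, Fdps overlaps Gm22935 and Gm43738, and Srebf1 overlaps Mir6921 and Mir6922. Whether the merging of neighbouring transcripts changed the values of these genes was not tested. Without the 6 genes, 19 of the other 27 members (70.4%) were higher in CD80high. Besides Insig2 and Elovl6, some of these other members also overlap a gene on the opposite strand. Hmgcs1 overlaps Gm48342, Idi1 overlaps Gm48574, Lss overlaps 4930483K19Rik, Scap overlaps 5830462I19Rik and Acaca overlaps Gm11437. The part of such overlaps in the listed values was not tested.

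Promoter windows were examined because SREBP proteins act at promoters together with NF-Y, which binds CCAAT boxes, and Sp1, which binds GC boxes. Windows from 250 bases before to 50 bases after the start site came from RefSeq (GRCm38.p6) and matched 26 of the 33 members; Fdps, Fdft1, Sqle, Stard4, Abcg1, Scd1 and Scd2 were not matched. The windows of 5 genes are printed 5′ to 3′ on the gene's own strand: Hmgcs1 (chr13:119690101-119690400, plus strand), whose window holds a sterol regulatory element, Idi1 (chr13:8885356-8885655, plus strand) as a higher isoprenoid gene, Insig1 (chr5:28071162-28071461, plus strand) and Insig2 (chr1:121332540-121332839, minus strand) as the divergent pair, and Elovl6 (chr3:129532136-129532435, plus strand) as the member with the largest ratio. Capitals mark matches, on either strand, to a sterol regulatory element, E-box, CCAAT box or GC box.
Hmgcs1: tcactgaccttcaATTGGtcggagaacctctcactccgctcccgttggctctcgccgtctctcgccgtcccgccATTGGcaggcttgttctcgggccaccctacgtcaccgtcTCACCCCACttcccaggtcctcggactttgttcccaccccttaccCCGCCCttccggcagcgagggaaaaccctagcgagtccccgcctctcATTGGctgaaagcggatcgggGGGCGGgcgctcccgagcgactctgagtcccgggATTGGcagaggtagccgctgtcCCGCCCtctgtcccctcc
Idi1: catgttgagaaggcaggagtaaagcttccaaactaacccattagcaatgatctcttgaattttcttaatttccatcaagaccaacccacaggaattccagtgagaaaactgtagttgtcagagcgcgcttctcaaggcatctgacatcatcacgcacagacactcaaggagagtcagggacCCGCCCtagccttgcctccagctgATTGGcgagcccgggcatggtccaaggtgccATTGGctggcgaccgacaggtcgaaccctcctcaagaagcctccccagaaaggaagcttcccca
Insig1: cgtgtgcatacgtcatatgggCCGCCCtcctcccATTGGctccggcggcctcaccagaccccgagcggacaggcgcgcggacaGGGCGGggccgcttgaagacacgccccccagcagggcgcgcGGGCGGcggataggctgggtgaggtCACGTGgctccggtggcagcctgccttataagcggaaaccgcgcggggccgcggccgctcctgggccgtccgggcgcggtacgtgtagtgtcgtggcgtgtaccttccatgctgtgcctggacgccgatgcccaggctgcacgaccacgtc
Insig2: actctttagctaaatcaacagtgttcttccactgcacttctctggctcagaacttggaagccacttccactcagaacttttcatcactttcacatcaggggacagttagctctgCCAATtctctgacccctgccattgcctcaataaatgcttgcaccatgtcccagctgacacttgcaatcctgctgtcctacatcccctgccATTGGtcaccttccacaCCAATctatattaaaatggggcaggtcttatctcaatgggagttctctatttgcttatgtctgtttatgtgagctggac
Elovl6: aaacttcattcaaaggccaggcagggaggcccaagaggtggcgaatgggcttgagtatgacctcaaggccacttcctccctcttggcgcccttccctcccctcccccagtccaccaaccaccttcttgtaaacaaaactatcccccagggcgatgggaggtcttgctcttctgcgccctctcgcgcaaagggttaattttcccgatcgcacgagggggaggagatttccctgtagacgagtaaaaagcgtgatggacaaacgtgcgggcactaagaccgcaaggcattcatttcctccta

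The 4 motifs, each searched on both strands, were a sterol regulatory element (TCACNCCAC), the E-box (CACGTG), the CCAAT box (CCAAT) and the GC box (GGGCGG). A direct repeat, GGTCA followed after 4 bases by GGTCA, was searched as well. Its spacing is not that of the liver X receptor element, so its matches say nothing about that element. The CCAAT box was found in 21 of the 26 matched members (80.8%), against 41.1% of all genes with a window and 43.7% of the genes expressed here. The GC box was found in 20 of 26 (76.9%), which is near the 70.3% of expressed genes though above the 38.2% of all genes. The E-box was found in 7 of 26 (26.9%), against 12.4% of expressed genes and 8.09% of all genes. The sterol regulatory element was matched in Hmgcs1 alone, at -137 to -129 relative to the start site, where 1.44% of all genes held it, and the direct repeat in 0 of 26, against 0.0518% of all genes. The motifs do not overlap one another in the 5 printed windows. A match is a run of letters and not a shown binding site, and a window without one says only that these letters are not in it.

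The printed windows differed in what they hold. Insig1 has 1 CCAAT box, 3 GC boxes and an E-box at -101 to -96. The first Insig2 window has 3 CCAAT boxes and no GC box, while each of its other 2 windows, at further start sites, has 1 GC box. Idi1 has 2 CCAAT boxes and 1 GC box, and Hmgcs1 has 4 CCAAT boxes and 3 GC boxes beside its sterol regulatory element. The Elovl6 window holds none of the motifs. Whether motif content goes with the ratios was not tested.

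**Figure D5:**
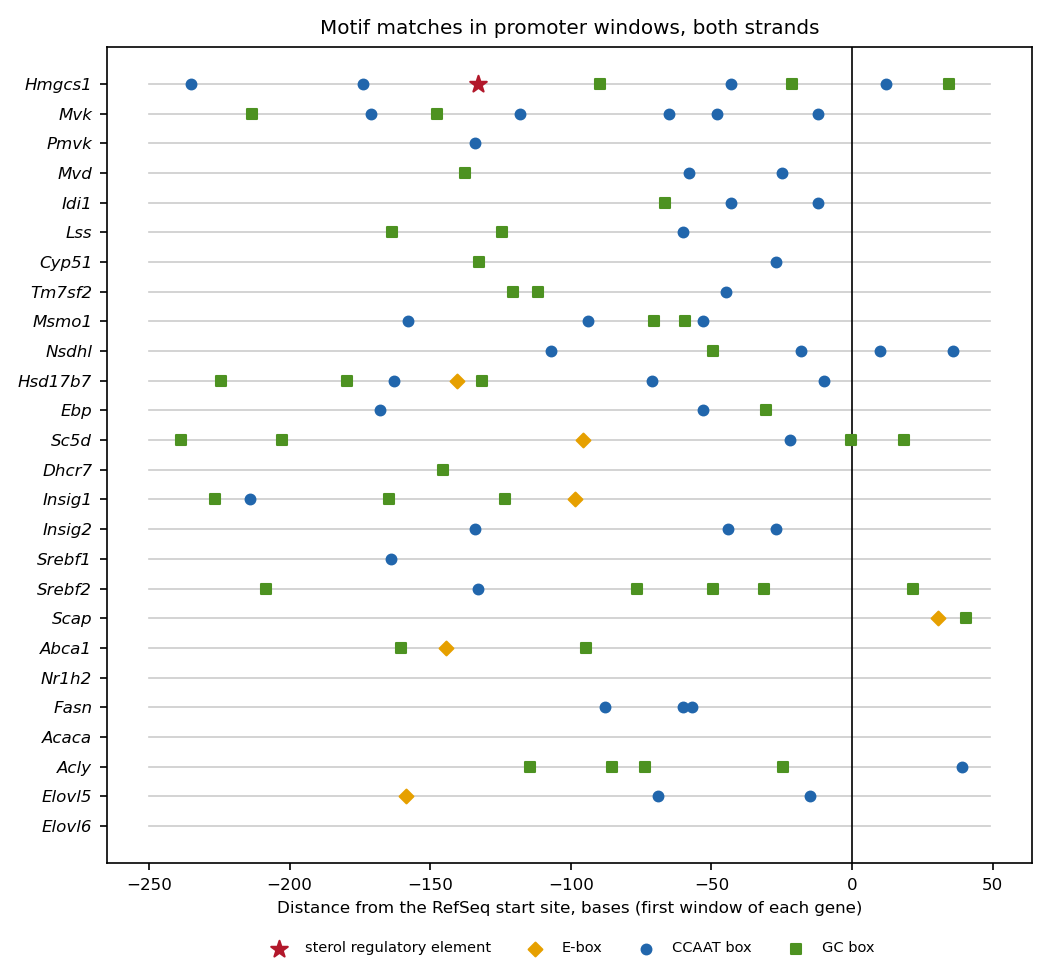
Positions of motif matches in the first promoter window of the 26 matched members, as distance in bases from the RefSeq start site; symbols give the motif, and both strands were searched. Blue CCAAT boxes appear in most windows, and the single red star is the sterol regulatory element of Hmgcs1, at -137 to -129.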

How the data were processed

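STAR 2.6, Cufflinks 2.2.1 with Cuffdiff and Cuffnorm, FastQC 0.11.5 and the mm10 build are named, per the submitters' processing notes. The sources used here do not state their roles or the annotation. The values deposited by the authors are FPKM, a unit taken from those tools and the values. The authors' p-values and q-values, per the file headers, compare 1 library with 1 library. The 24 symbols on several rows were summed. Genes needed a mean of 1 FPKM, and the ratio is log2 with 1 FPKM added. Depth was estimated from low FPKM values of genes with 1 coding transcript over 2000 nucleotides, which fall near steps of 1 fragment: 70.3% of values in CD80high and 70.1% in CD80low lay within 0.25 of a whole step, so the depth is approximate. Counting intervals are exact conditional (Clopper-Pearson) at 95%, from the median length of coding transcripts (GENCODE M21, GRCm38). The ratio and interval were run on simulated counts of known depth and length. Such counts cannot test the estimated depth, the length used or the sharing of fragments among transcripts. Members, roles and lists were chosen with earlier results of these data known. All members are described; other pathway genes are named at 1.2-fold or more, and of each marker list of other cells the 2 of highest mean. Some genes of these lists are not reported here. Alternatives were another pseudocount (0.1 or 5), no filter or 5 FPKM, centring, rescaling, length adjustment, the highest row of a repeated symbol and the second sheet, which differs for 5 genes. Software was scipy 1.17.1, pandas 2.3.3, numpy 2.4.6 and matplotlib 3.10.9 under Python 3.11.15.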

Additional observations from a re-analysis of the deposited data

How the results depend on the processing

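No paired analysis was possible because each population has 1 library, and leaving out a library leaves no comparison. In all, 11 alternatives were tried; adjustment with the longest transcript and leaving out the 6 genes of wide loci were chosen after seeing the data. The count of members higher in CD80high stayed within 1.5 times of 21 in each of them. The count at 1.2-fold was 4 with 5 FPKM added, where 10.9% of all genes passed, and 15 after rescaling, where 27.1% passed, 23.1% as higher, against 8 and 19.7%. The count at 1.5-fold was 2 with 0.1 FPKM added and 0 with 5 FPKM added or with either length adjustment, against 1. The member median was 0.20 after rescaling. Over the alternatives 19 members were always higher, 3 (Insig2, Ebp and Fdps) always lower, and 11 took both directions. Another pseudocount or filter cannot reverse a direction, so these counts rest mainly on centring, rescaling and length adjustment. Counting error, computed with median transcript lengths, limits what this depth can show: the interval of Mvk runs from 0.912 to 1.45, that of Scd2 from 1.22 to 1.29.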
